A study of Mus musculus with 15 samples.

Results

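Tumors that arose in the antrum, the distal part of the stomach, were compared with normal stomach tissue over all genes. The comparison used 3 antrum tumor samples and 3 normal samples, 6 of the 15 in the series, chosen by their labels alone. The other 9 samples were tumors from the corpus and from the cardia, the latter split by greater and lesser curvature. Both groups carried the same alleles on C57BL/6: a tamoxifen-dependent Cre at Pou2f3 (Pou2f3-CreERT), floxed Rb1 (Rb1fl/fl), floxed Trp53 (Trp53fl/fl) and a Myc transgene that Cre switches on (LSL-MycT58A). The mice were 7 to 8 weeks old and received tamoxifen intraperitoneally at 50 mg/kg on a single day. Tissue was taken 5 weeks after induction. The normal tissue therefore came from mice with the same alleles and the same tamoxifen as the tumors, and the part of the stomach it was cut from is not given. Cre expression was driven by Pou2f3, so recombination was directed to cells that express it. Replicates are labelled as biological, but no label ties a sample to an animal, so every p-value below measures the spread between samples only. In the main fit that spread came from all 15 samples in 5 groups, not from the 6 compared ones alone. Samples are called normal 1 to 3 and antrum 1 to 3.

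Pou2f3 is the transcription factor that specifies tuft cells, the chemosensory cells scattered through the gut lining. Rb1 encodes the retinoblastoma protein, which holds back the E2F factors that switch on DNA replication genes, and Trp53 encodes p53, which halts the cell cycle or kills the cell after damage. MycT58A is a form of Myc that is degraded slowly, and Myc is known for raising ribosome production. The antral mucosa is built of mucous pit and gland cells and of endocrine cells, among them the G cells that secrete gastrin. It lies on layers of smooth muscle with their nerves. The mouse stomach also has a forestomach lined by squamous epithelium, and a corpus with acid-secreting parietal cells and enzyme-secreting chief cells.

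The labelled region was checked against antral markers before any comparison. Gast, the gastrin gene, stood at 0, 37.1 and 604 CPM (counts scaled by library size) in normal 1, 2 and 3, and at 0, 83.2 and 17.7 CPM in antrum 1, 2 and 3. Nkx6-3, a transcription factor of antral endocrine cells, gave 0.22, 55.1 and 119 CPM in the normals and 3.87, 63.7 and 56.8 CPM in the tumors. Pdx1, a factor of the distal stomach and duodenum, gave 0.514, 26.3 and 33.6 CPM against 2.34, 22.8 and 18.7 CPM. These 3 were at or near 0 in normal 1 and low in antrum 1, and present in the other 4 libraries. The full list of 13 antral genes, which also holds gland genes of other stomach regions, was not uniform. It summed to 56445 CPM in normal 1 against 3237 and 4852 CPM in normal 2 and 3, of which Muc6 alone gave 51297 CPM. Of the 13 genes 3 (Sox9, Gkn3 and Muc6) were highest in normal 1, 3 in normal 2 and 7 in normal 3. In the tumors the list summed to 451 CPM in antrum 1 and to 2442 and 1657 CPM in antrum 2 and 3. Of the list 1 gene was called higher (Onecut2) and 1 lower (Barx1), against 9.59% and 5.08% of all genes. Gast was between 0 and 2.3 CPM in the 9 tumors of other sites, so the marker of the labelled site was seen in antrum 2 and antrum 3 and not in antrum 1.

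Single libraries stood apart in other ways (the plot of falls and stomach markers by library). Antrum 1 was at 176 on the first principal component of the 6 libraries, which held 57.1% of their variance, against 3.03 and 34.4 for antrum 2 and 3 and -120 to -25.2 for the normals. The 17 pan-epithelial markers summed to 311 CPM in antrum 1, against 10407 and 8844 CPM in antrum 2 and 3 and 5114 to 15006 CPM in the normals. In bulk tissue, fewer cells of a type and less RNA per cell cannot be told apart. Normal 2 held 15607 CPM of squamous epithelium genes, against 29.2 and 55.9 CPM in normal 1 and 3. Normal 1 held 77320 CPM of neck mucous cell genes, against 5370 and 5454 CPM in normal 2 and 3. The 6 libraries held 14307391 to 17474336 counts, so 1 count stood for 0.0551 to 0.0872 CPM, a limit that covers counting error only.

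**Figure D1:**
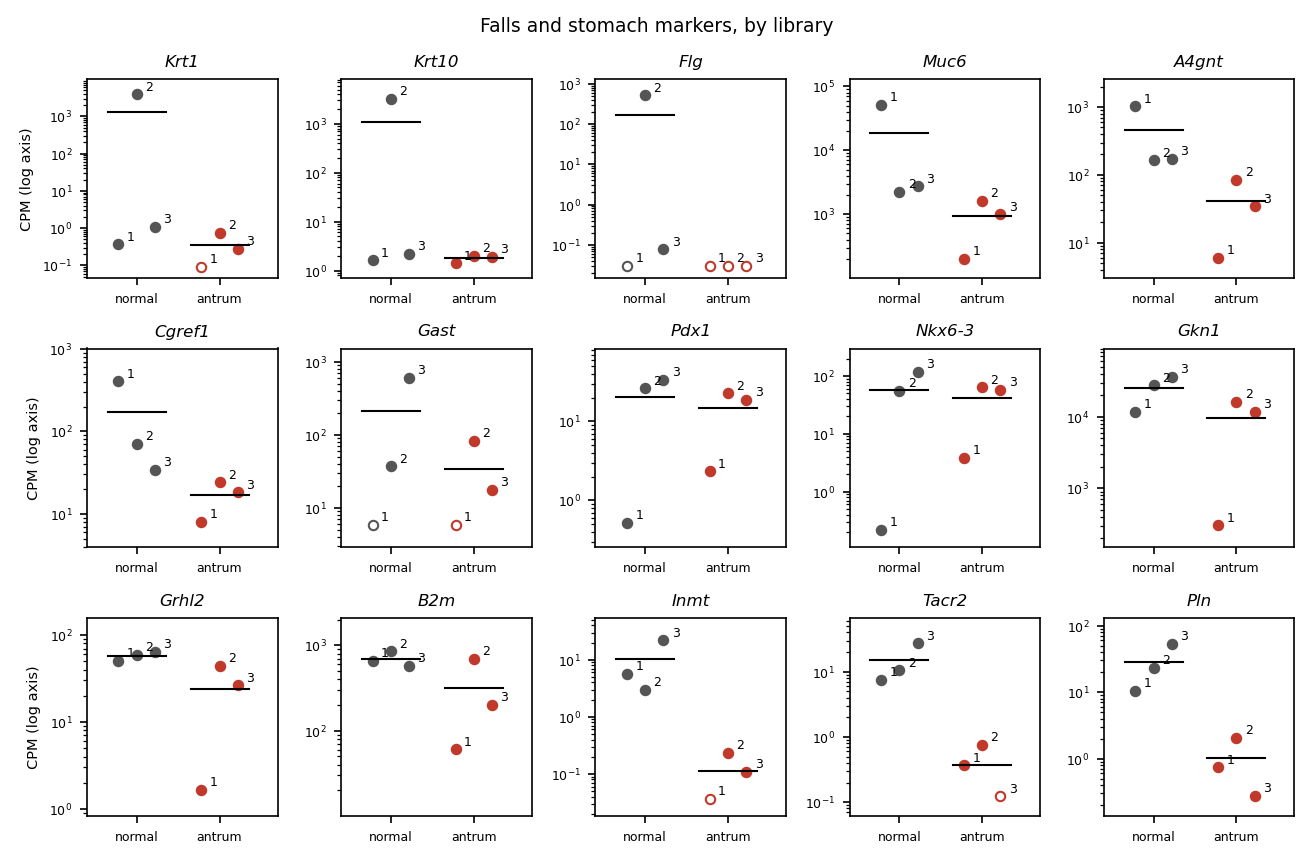
CPM on a log axis of 15 genes in the 3 normal libraries (grey) and the 3 antrum tumor libraries (red), numbered by replicate, with the group mean as a line. Open circles are libraries at 0, drawn at an arbitrary low position. Krt1, Krt10 and Flg are high in normal 2 only, Muc6, A4gnt and Cgref1 are highest in normal 1, and Gast, Pdx1 and Nkx6-3 are lowest in normal 1 and antrum 1.

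Of 16224 genes tested with edgeR, 1556 were called higher in the antrum tumors (9.59%) and 824 were called lower (5.08%), 14.7% of all genes tested. The median log2 fold change was 1.49 among the rises and -1.45 among the falls, and -0.05 over all genes. In 1549 of the rises all antrum tumors lay above all normals, a separation that 21.9% of all genes tested showed. In 774 of the falls all antrum tumors lay below all normals, against 18.8% of all genes tested. Another 3217 genes had an unadjusted p under 0.05 without being called.

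Most calls were lost without any 1 of 5 of the 6 libraries. Antrum 1 was the highest tumor for 1257 of the 1556 rises and the lowest for 487 of the 824 falls. Without antrum 1, edgeR called 333 genes higher and 122 lower, and without antrum 3 it called 522 and 127. Antrum 2 was the exception: without it 1683 were called higher and 568 lower, and 1437 of the 1556 rises and 449 of the 824 falls were kept. Without normal 1 it called 517 (3.12%) and 218 (1.31%), without normal 2 530 (3.19%) and 403 (2.43%), and without normal 3 207 (1.24%) and 180 (1.08%). Left out together, normal 1 and antrum 1, the libraries lowest in Gast, Nkx6-3 and Pdx1, left 2 genes called higher, Mmp10 and Onecut2, and 0 called lower. Each compared group then held 2 samples, and no other pair of libraries was left out. Fewer samples and the content of these libraries therefore cannot be told apart. In that fit 2189 rises and 1204 falls had an unadjusted p under 0.05, and all 1556 and all 824 genes kept their direction, with medians of 1.33 and -1.16. The genes had been called with these same libraries, and in 1549 rises and 774 falls all tumors already lay beyond all normals. The kept direction was therefore nearly fixed in advance and is no separate check. In the deposited TPM values (transcript levels scaled for length and to 1 common total), whose median change over the same genes was 0.42 on the log2(TPM + 1) scale against -0.05 in the counts, limma called 3745 higher and 302 lower, so 92.5% of calls were rises there against 65.4% in the counts. List medians of p53 targets, antral, Wnt, enteric, glycolysis, amino acid, interstitial and EGF genes were below 0 in the counts and above 0 in TPM, and that of endothelial genes went from -0.50 to 0.00.

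**Figure D2:**
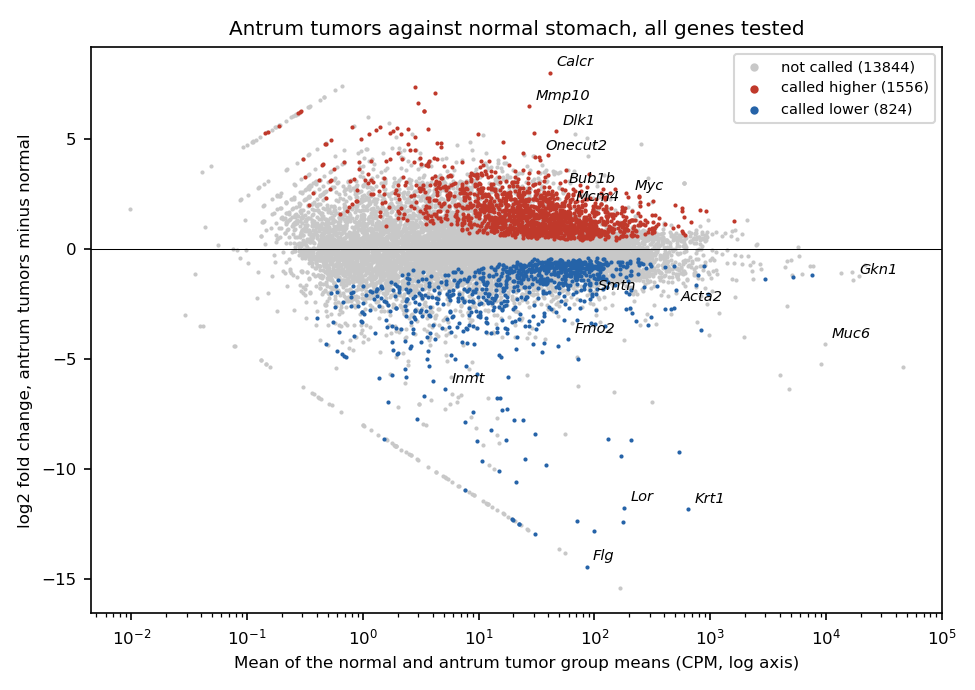
log2 fold change of antrum tumors against normal for the 16224 genes tested, by the mean of the 2 group means in CPM on a log axis, with genes called higher in red and called lower in blue. Among the genes written on the plot, Flg, Krt1 and Lor lie lowest and Calcr and Mmp10 highest.

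The genes of the engineered alleles gave the following values. Myc stood at 98.4, 51.3 and 39.1 CPM in the normals and at 475, 163 and 347 CPM in the tumors, with every tumor above every normal. Its log2 fold change was 2.38 ± 0.64 (SE) with an adjusted p of 0.0324 in edgeR, which rose to 0.0535 to 0.111 when any library but antrum 2 was left out. The sources used here do not say if transgene reads count as Myc. Rb1 stood at 36.1, 49.5 and 42.7 CPM in the normals and 23.3, 45.3 and 31 CPM in the tumors, and Trp53 at 29.2, 32.4 and 28.1 CPM against 25.4, 45.9 and 27.5 CPM. Neither was called (adjusted p = 0.3 and 0.772), and gene counts that include exons outside the floxed segments do not test recombination. Pou2f3 itself stood at 0.367, 5.32 and 0.612 CPM in the normals and 0.123, 0.991 and 0.991 CPM in the tumors, with overlapping groups and an adjusted p of 0.35. Cdkn2a, the locus of p16 and p19, was called higher, from 8.01, 0 and 1.45 CPM to 88.9, 17.1 and 69 CPM (log2 fold change 4.19 ± 1.17, adjusted p = 0.0364). Without normal 2, normal 3, antrum 1 or antrum 3 its adjusted p was 0.0555 to 0.111.

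DNA replication genes were called higher nearly without exception. Of 31 members tested, 30 were called higher and 0 lower, against 9.59% and 5.08% of all genes, and the median was 1.85. The list summed to 530, 669 and 778 CPM in the normals and to 2786, 1844 and 2126 CPM in the tumors. Mcm4, a subunit of the helicase that opens the double helix, stood at 19, 26.7 and 32.7 CPM in the normals and at 102, 92.5 and 94.8 CPM in the tumors (26.1 ± 6.9 against 96.5 ± 5.02 CPM, SD, n = 3 each). Its log2 fold change was 1.88 ± 0.26 with an adjusted p of 0.0106 in edgeR, and the call held when each of the 6 libraries was left out in turn. Gins2, a subunit of the complex that activates that helicase, went from 3.75, 4.8 and 5.28 CPM to 21.9, 15.8 and 16.8 CPM (log2 fold change 1.98 ± 0.29, adjusted p = 0.0106). Mcm10, a replication initiation factor, went from 10.7, 18 and 18 CPM to 61.1, 45.9 and 46.7 CPM (1.72 ± 0.27, adjusted p = 0.0106). Gins3 alone was not called, at 3.89, 3.93 and 11.2 CPM against 6.76, 8.92 and 9.58 CPM. Without normal 3 the list had 17 calls, and 15 of the 31 members held without each normal in turn, a criterion met by 1.18% of all genes for rises.

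The replication genes are the textbook targets of E2F, so their promoters were searched for E2F motifs. The windows are the 250 bases before each RefSeq start (GRCm38.p6 table), searched on both strands for the words TTTCCCGC and TTTGGCGC. Their matches can overlap by a few bases, and a promoter was counted once. Of 25 replication promoters with an entry, 6 (24%) held either word, against 1.35% of 27025 promoters in the table, 2.3% of 12114 promoters of genes tested, 4.78% of 1214 called higher and 1.08% of 650 called lower. Of 19 mitosis promoters 0 held one. The matching stretches of these 6 genes are shown because they are the replication promoters that hold a word, with flanking bases and with the word or its reverse complement in capitals. Each is written 5′ to 3′ on the strand named. That strand was checked against transcript sequences for Cdc6, Gins3 and Pola1. For Mcm5, Mcm6 and Mcm7 the check found no matching transcript.
Cdc6 (chr11:98907973-98908060, plus strand): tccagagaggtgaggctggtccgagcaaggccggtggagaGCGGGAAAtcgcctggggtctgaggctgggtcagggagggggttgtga
Mcm5 (chr8:75109320-75109407, plus strand): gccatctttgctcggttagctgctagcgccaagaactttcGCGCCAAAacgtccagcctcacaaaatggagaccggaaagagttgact
Mcm6 (chr1:128359706-128359855, minus strand): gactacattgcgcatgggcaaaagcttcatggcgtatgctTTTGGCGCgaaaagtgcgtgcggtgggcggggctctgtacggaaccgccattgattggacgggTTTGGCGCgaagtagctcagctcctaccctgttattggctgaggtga
Mcm7 (chr5:138172001-138172088, minus strand): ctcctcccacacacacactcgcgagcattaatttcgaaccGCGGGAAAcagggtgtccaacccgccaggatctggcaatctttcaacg
Pola1 (chrX:93632246-93632333, minus strand): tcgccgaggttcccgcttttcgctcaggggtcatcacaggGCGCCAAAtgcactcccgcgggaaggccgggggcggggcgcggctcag
Gins3 (chr8:95633478-95633558, plus strand): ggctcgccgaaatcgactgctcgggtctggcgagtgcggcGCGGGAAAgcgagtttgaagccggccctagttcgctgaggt
Mcm6 holds the word at 2 places and the others at 1. Mcm5, another helicase subunit, stood at 14.5, 26.2 and 30.4 CPM in the normals and 102, 83.2 and 96.1 CPM in the tumors, and Mcm6 at 43.8, 56.4 and 79.3 against 242, 203 and 203 CPM. Cdc6, which loads the helicase, went from 4.33, 11.3 and 9.33 CPM to 24.5, 29.1 and 22.2 CPM. Pola1, the catalytic subunit of the priming polymerase, went from 8.74, 14.4 and 17.1 to 41, 41.4 and 39.5 CPM. Mcm7 went from 44.8, 37.4 and 56.4 to 226, 131 and 169 CPM. In all of these 5 genes every tumor was above every normal and the gene was called, while Gins3 holds the same word as Cdc6 and its groups overlap, so holding the word did not by itself mark a called gene.

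Mitotic genes rose further. Of 23 tested, 22 were called higher and 0 lower, against 9.59% and 5.08% of all genes, with a median of 2.41. Without each normal in turn 11 held, against 1.18% of all genes for rises. Bub1b, a kinase of the spindle checkpoint, stood at 12.6, 17.9 and 11 CPM in the normals and 99.3, 78.5 and 99.2 CPM in the tumors (13.8 ± 3.6 against 92.3 ± 12 CPM, SD, n = 3 each). Its log2 fold change was 2.74 ± 0.38 with an adjusted p of 0.0106 in edgeR. Bub1, its partner at the kinetochore, went from 5.95, 10.6 and 6.35 to 58.6, 40.6 and 41.7 CPM (2.62 ± 0.39, adjusted p = 0.0106). Ttk, the kinase that starts the checkpoint, went from 3.82, 5.76 and 4.66 to 37.4, 21.7 and 27.1 CPM (2.60 ± 0.37, adjusted p = 0.0106). The calls of all of these 3 held without each library in turn. All 23 members were highest in normal 2 among the normals. Bub3 was the member not called, at 51.8, 56.4 and 49.8 against 152, 79.9 and 94.1 CPM (adjusted p = 0.0519).

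Ribosome biogenesis genes, the classic targets of Myc, rose too. Of 24 tested, 23 were called higher and 0 lower, against 9.59% and 5.08% of all genes, with a median of 1.61. In all 24 every tumor lay above every normal, against 21.9% of all genes. Nop58, a protein of the particles that modify ribosomal RNA, was tight in the normals at 73.8, 76.8 and 78.4 CPM and stood at 287, 189 and 240 CPM in the tumors (log2 fold change 1.64 ± 0.32, adjusted p = 0.0132 in edgeR). Utp20, which processes the small subunit RNA, went from 30.4, 29.2 and 28.4 to 67.3, 78.8 and 67.3 CPM (1.28 ± 0.24, adjusted p = 0.0123). Ncl, the nucleolar protein nucleolin, was the most abundant of those named, at 458, 355 and 476 against 1814, 1019 and 1428 CPM. The list rested more on single libraries than the replication list did. Without each normal 2 of its 24 members held, against 1.18% of all genes for rises, and 5 were called without antrum 1. Of 19 of its promoters 1 (5.26%), that of Nop2, held the E-box CACGTG that Myc binds, against 6.05% of all promoters, and 3 (15.8%), those of Ncl, Nolc1 and Nop58, held an E2F word. A match, or none, describes these letters in this window only.

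Among called genes with a group mean of at least 10 CPM whose groups did not overlap, the 12 largest rises were led by Calcr and Mmp10. Calcr, the calcitonin receptor, stood at 0.514, 0 and 0.382 CPM in the normals and 0.799, 40 and 205 CPM in the tumors. The log2 fold change of 8.02 ± 2.33 (adjusted p = 0.0409 in edgeR) rested on antrum 2 and antrum 3, with antrum 1 near the normals. Mmp10 (stromelysin 2, a matrix metalloproteinase, chromosome 9 from 7502352 to 7510240) went from 0.514, 0.262 and 0.994 to 8.11, 81.5 and 72.9 CPM, a log2 fold change of 6.49 ± 0.88 (adjusted p = 0.0106). Onecut2, a transcription factor of endoderm and of neuroendocrine tumors (chromosome 18 from 64340020 to 64400987), had the smallest adjusted p among those named. It stood at 4.11, 1.48 and 4.59 CPM in the normals and 44.3, 84.4 and 60.1 CPM in the tumors (3.39 ± 1.67 against 62.9 ± 20.2 CPM, SD, n = 3 each; log2 fold change 4.20 ± 0.43, adjusted p = 0.00684).

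Dlk1, an imprinted transmembrane protein of progenitor cells, went from 3.67, 0.698 and 2.29 to 94.7, 67.5 and 113 CPM, and its call held without each library in turn (log2 fold change 5.36 ± 0.94, adjusted p = 0.0114 in edgeR). Zdbf2, another imprinted gene, went from 1.62, 1.74 and 1.15 to 37.6, 63.5 and 73.8 CPM (5.27 ± 1.21, adjusted p = 0.0211). The homeobox gene Shox2 went from 1.32, 0 and 0.153 to 26.8, 7.63 and 23.2 CPM. Hs6st2, which sulfates heparan chains, went from 1.62, 1.22 and 0.382 to 57.5, 8.27 and 29.5 CPM. Inhba, the activin A subunit, went from 0.955, 3.05 and 2.68 to 5.16, 37.8 and 94.3 CPM, and Bcat1, which breaks down branched amino acids, from 7.86, 0.698 and 2.75 to 97.2, 28 and 65.8 CPM. Antrum 1 was the highest tumor for Hs6st2, Shox2 and Bcat1 and the lowest for Zdbf2, Inhba and Mmp10. Without normal 3 the adjusted p of Zdbf2, Shox2, Hs6st2, Inhba and Bcat1 was 0.0547 to 0.0997, and that of Calcr 0.113.

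**Figure D3:**
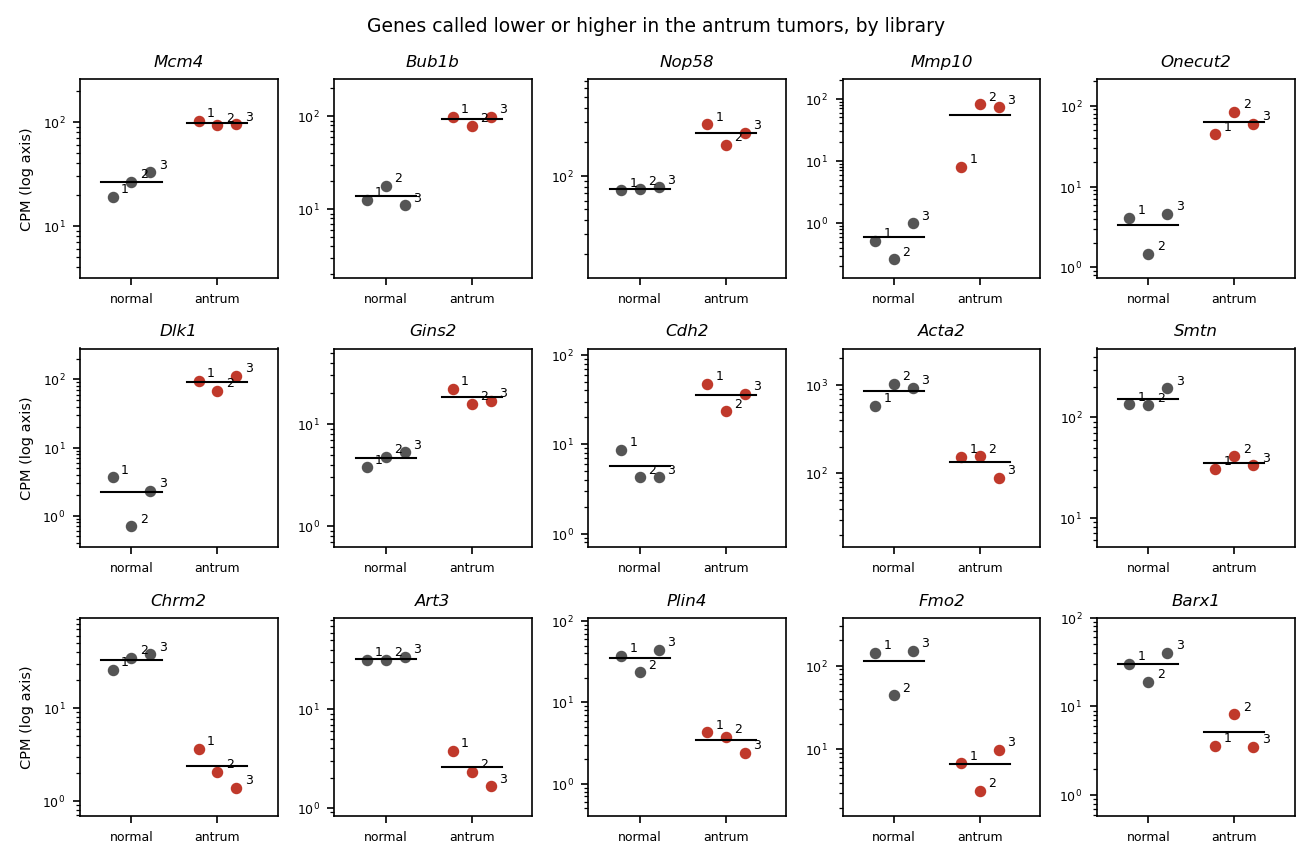
CPM on a log axis of 15 genes that were called in the main fit and without each of the 6 libraries in turn, in the 3 normal libraries (grey) and the 3 antrum tumor libraries (red), numbered by replicate, with the group mean as a line. In each of them the groups do not overlap.

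Proteases of the matrix and their inhibitors were mostly higher. Of 20 tested, 7 were called higher and 1 lower, against 9.59% and 5.08% of all genes, 16 were above 0, and the median was 2.14. Without normal 3, 2 were called higher, and without normal 1, 3. Beside Mmp10, the collagenase Mmp13 went from 1.1, 1.83 and 2.22 to 3.44, 36.9 and 54.1 CPM, with antrum 1 close to the normals (adjusted p = 0.034, and 0.0953 without normal 1). Timp1, a metalloproteinase inhibitor, went from 1.91, 2.09 and 1.45 to 9.1, 14.7 and 33.9 CPM (3.40 ± 0.65, adjusted p = 0.0132, and 0.0531 without normal 3). Timp3, the inhibitor bound to the matrix, was the member called lower, from 126, 141 and 134 to 41.2, 56.4 and 80.1 CPM (adjusted p = 0.0466, 0.161 without antrum 1 and 0.0513 with the replicate block). Among fibroblast genes 1 of 17 was called, Pdgfrb, the PDGF receptor of pericytes, at 24, 13.9 and 22.6 against 66.1, 47.4 and 48 CPM (adjusted p = 0.0185, and 0.0679 without antrum 1). Cdh2, N-cadherin, was the called member of 10 mesenchymal transition genes, at 8.67, 4.27 and 4.28 against 47.1, 23.4 and 36.5 CPM (adjusted p = 0.0107).

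The chemokines that act through CXCR2, the receptor that draws neutrophils, were low in the normals. With the receptors, 4 of 7 genes were called higher, against 9.59% of all genes. Cxcl5 stood at 0.0735, 0.523 and 0.382 CPM in the normals and 0.553, 6.53 and 20.5 CPM in the tumors (log2 fold change 4.81 ± 1.34, adjusted p = 0.0367 in edgeR). Antrum 1 was barely above normal 2, and without antrum 3 the adjusted p was 0.11. Cxcl1 went from 0.514, 0.262 and 0.306 to 3.13, 0.932 and 23.3 CPM, Cxcl3 from 0.147, 0 and 0.153 to 0.676, 0.991 and 10.9 CPM, and Cxcl2 from 0.882, 0 and 0.535 to 4.3, 1.51 and 19.2 CPM. In each of the 4 ligands antrum 3 was the highest library. Cxcl2 had an adjusted p of 0.0382, and 0.0553 with the replicate block. Without any 1 normal Cxcl5, Cxcl1, Cxcl3 and Cxcl2 all lost their call, with adjusted p-values of 0.052 to 0.102. In the log2(TPM + 1) fit 2 of the 7 genes were called. Cxcr2, the receptor, stood at 0.661, 2.27 and 0.688 CPM in the normals and 0.799, 0.641 and 2.31 CPM in the tumors, with overlapping groups (adjusted p = 0.952).

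Of 14 inflammatory cytokine genes tested 4 were called higher, and 2 with the replicate block, against 9.59% of all genes called higher. Without normal 1, normal 3 or antrum 3, 0 were called by edgeR, without normal 2, 1, and without antrum 1, 2. With all samples 8 were higher at an unadjusted p under 0.05, and DESeq2 called 7. Ptgs2, the inducible cyclooxygenase, went from 6.98, 8.72 and 4.82 to 9.83, 33.6 and 112 CPM (adjusted p = 0.0332, and 0.125 without antrum 3). Il1b, interleukin 1 beta, went from 1.47, 0.872 and 0.994 to 4.12, 2.21 and 17.1 CPM (adjusted p = 0.0389, 0.155 without antrum 3 and 0.0637 with the replicate block). Tnf stood at 0.0735, 0 and 0.229 CPM in the normals and 0.492, 1.28 and 1.1 CPM in the tumors (adjusted p = 0.032, and 0.0515 to 0.0893 without any 1 library). Of 12 neutrophil markers 1 was called, the receptor Trem1, which lost its call with the replicate block (adjusted p = 0.0782), and the list summed to 14.4 to 25.1 CPM in the normals and 20 to 51.7 CPM in the tumors. Of 17 macrophage and monocyte markers 0 were called by edgeR, with sums of 217 to 405 CPM against 333 to 940 CPM. At an unadjusted p under 0.05, 6 were higher and 2 lower, DESeq2 called 1 and 1, and limma on TPM called 6 and 0.

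Neuroendocrine transcription factors were higher by median (2.59 over 17 genes) but 1 was called (2 with the replicate block), against 9.59% of all genes called higher. DESeq2 called 8 higher and 1 lower, as at an unadjusted p under 0.05, and limma on TPM called 7 higher. The gene called by edgeR was Pax6, a homeobox factor of endocrine cells, at 2.72, 1.13 and 7.8 CPM in the normals and 19.4, 62.9 and 144 CPM in the tumors (adjusted p = 0.0436 in edgeR, and 0.0544 to 0.121 without any 1 library). In 10 of the 17 all tumors lay above all normals, against 21.9% of all genes. Neurod1, a proneural factor, stood at 20.5, 0.785 and 7.72 against 79.4, 41.5 and 48.3 CPM, separated but with an adjusted p of 0.187. Of 29 effector genes 2 were called higher, the adhesion molecule Ncam1 (16, 10.5 and 12.7 against 55.1, 30.5 and 79.2 CPM, adjusted p = 0.0229) and the synaptic vesicle protein Syn1 (3.6, 1.74 and 2.75 against 19.7, 7.58 and 29 CPM, adjusted p = 0.0278). Without any library but antrum 2 their adjusted p-values were 0.0534 to 0.0837. The 2 calls among 29 effectors were a smaller share than the 9.59% of all genes called higher. DESeq2 called 11 effectors higher and 2 lower, as at an unadjusted p under 0.05, and limma on TPM called 5 higher. Rab3b, a vesicle GTPase, was called lower, from 2.5, 4.8 and 9.63 to 0.369, 1.34 and 2.2 CPM (adjusted p = 0.0497, and 0.055 to 0.178 without any 1 library), with normal 3 the highest normal.

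Chga, the granule protein chromogranin A, stood at 655, 181 and 798 CPM in the normals and 3403, 320 and 414 CPM in the tumors, so antrum 1 lay above all normals, antrum 2 and 3 lay among them, and the gene was not called (adjusted p = 0.415). Syp, synaptophysin, stood at 20, 13.5 and 17 against 132, 39.2 and 76.2 CPM, separated and not called by edgeR (adjusted p = 0.0723), though called by DESeq2 (0.0146), in the fit of the compared groups only (0.0472) and by limma on log2(TPM + 1) (0.0467). The edgeR fit of the compared groups only was weaker for 35 named genes and stronger for 3. In it Myc, Cdkn2a, Calcr, Pax6, Cxcl5, Cxcl1, Ptgs2 and Il1b lost their call, with adjusted p-values of 0.0558 to 0.122. The 14 gut hormones had 0 called higher and 1 lower, the peptide Cartpt, from 19.1, 7.68 and 16 to 2.09, 0.991 and 0.44 CPM (adjusted p = 0.0472, and 0.0682 to 0.127 without any 1 library). With the replicate block 1 hormone was called higher and 2 lower. Of all genes, 9.59% were called higher and 5.08% lower without the block. Tuft cell genes had 0 of 21 called higher and 1 lower, Ptgs1, the constitutive cyclooxygenase, from 37.8, 44.5 and 69.3 to 8.67, 17.2 and 18.8 CPM (adjusted p = 0.0143, and 0.0538 without normal 3). Dclk1, a tuft cell kinase that is also expressed by neurons, stood at 9.7, 20.8 and 13 against 37.1, 27.3 and 36.3 CPM (adjusted p = 0.0521). The tuft list summed to 185, 605 and 522 CPM in the normals and 67.9, 350 and 319 CPM in the tumors, and 16 of its 21 genes were highest in normal 2.

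Genes of smooth muscle were the list with the most called falls, and no normal library carried them alone. Of 14 tested, 10 were called lower and 0 higher (13 with the replicate block), against 5.08% of all genes, and in 13 all tumors lay below all normals. The median was -2.84, and it was -2.91, -2.82 and -2.93 without normal 1, 2 and 3. The list summed to 5102, 7208 and 5628 CPM in the normals and 1268, 716 and 342 CPM in the tumors. Acta2, smooth muscle actin, fell from 579, 1032 and 922 to 155, 156 and 88.9 CPM (844 ± 236 against 133 ± 38.3 CPM, SD, n = 3 each; log2 fold change -2.67 ± 0.43, adjusted p = 0.0107 in edgeR). Smtn, the contractile protein smoothelin, fell from 135, 132 and 195 to 30.6, 41 and 33.3 CPM (-2.14 ± 0.28, adjusted p = 0.0106). Mylk, the kinase that triggers contraction, fell from 228, 436 and 468 to 60.9, 61.5 and 26.7 CPM (-2.92 ± 0.46, adjusted p = 0.0106). These 3 held without each library in turn. Without antrum 1 the list had 6 calls, and without normal 3 it had 4.

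Myh11, smooth muscle myosin, had the highest level of the list, at 1232, 1905 and 1552 CPM in the normals and 186, 142 and 34.7 CPM in the tumors (adjusted p = 0.0206, and 0.0539 without normal 3). Pln, the regulator of the calcium pump, fell from 10.4, 22.9 and 53 to 0.738, 2.04 and 0.275 CPM, and Tacr2, the neurokinin receptor of gut muscle, from 7.57, 10.6 and 27.1 to 0.369, 0.757 and 0 CPM. Normal 3 held 61.4% of the summed normal CPM of Pln and 60% of that of Tacr2, and without it their adjusted p-values were 0.068 and 0.0543. Chrm2, the muscarinic receptor of gut muscle, fell from 25.9, 34.8 and 37.7 to 3.63, 2.04 and 1.38 CPM, with no normal above 38.3% of the sum (log2 fold change -3.80 ± 0.72, adjusted p = 0.0128, held without each library). Of 16 enteric neuron and glia genes 2 were called lower, against 5.08% of all genes. These were Hand2, a factor of enteric neurons and gut mesenchyme, from 20.1, 19.6 and 41.7 to 1.6, 2.16 and 2.2 CPM, and Sox10, the glial factor, from 1.1, 1.4 and 2.91 to 0.0615, 0.35 and 0.11 CPM. Both were highest in normal 3 and lost their call without it (adjusted p = 0.0538 and 0.0683), and kept it without normal 1 or normal 2. The share of muscle wall in each piece of tissue is not given, and its part in these falls was not tested.

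Other named falls also held without each of the 6 libraries. Art3, an ADP-ribosyltransferase family member, was near-equal in the normals at 31.7, 31.6 and 34.3 CPM and stood at 3.81, 2.33 and 1.65 CPM in the tumors (log2 fold change -3.64 ± 0.56, adjusted p = 0.0106 in edgeR). Fmo2, a flavin monooxygenase that oxidizes drugs, fell from 142, 44.1 and 150 to 6.82, 3.2 and 9.8 CPM (-4.08 ± 0.79, adjusted p = 0.0132). It is 1 of 3 called among 13 genes of foreign compound metabolism, all 3 lower, against 5.08% of all genes called lower. Inmt, which methylates indoles, fell from 5.73, 2.97 and 22 to 0, 0.233 and 0.11 CPM (-6.38 ± 1.18, adjusted p = 0.0123), and normal 3 held 71.7% of its normal sum. Abca8a, a lipid transporter, fell from 19, 17.4 and 35.2 to 1.29, 1.98 and 1.82 CPM, Lrrc3 from 7.27, 12.5 and 24.8 to 1.29, 1.69 and 0.551 CPM, and Prom2, a membrane protein of epithelial protrusions, from 96.9, 84.4 and 27.2 to 0.922, 5.19 and 4.68 CPM. Plin4, a lipid droplet coat protein, fell from 37.4, 23.4 and 44.3 to 4.3, 3.79 and 2.42 CPM (-3.32 ± 0.53, adjusted p = 0.0107). Barx1, the mesenchymal homeobox factor of the stomach, fell from 30.1, 18.8 and 40.1 to 3.63, 8.16 and 3.52 CPM (-2.54 ± 0.39, adjusted p = 0.0106). Nkd1, a brake on Wnt signaling, fell from 14.7, 17.6 and 17.4 to 6.09, 4.31 and 3.85 CPM (-1.80 ± 0.33, adjusted p = 0.0119).

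Gastric epithelial lists had medians below 0 and few calls by edgeR, and their levels spanned wide ranges within each group. Parietal cell genes had 3 of 15 called lower, against 5.08% of all genes, and a median of -2.38. In 13 of the 15 all tumors lay below all normals, against 18.8% of all genes. With the replicate block 4 were called lower and by DESeq2 9, and 10 were lower at an unadjusted p under 0.05. Kcne2, the potassium channel subunit of acid secretion, fell from 142, 72.8 and 64.1 to 0.738, 10.6 and 1.93 CPM (adjusted p = 0.0433, and 0.0747 to 0.133 without any library but antrum 2). Hrh2, the histamine receptor, fell from 66.3, 17.8 and 38.5 to 0.43, 4.66 and 2.48 CPM (adjusted p = 0.0444), and Esrrg, a nuclear receptor of parietal cells, from 334, 119 and 130 to 84.6, 72.4 and 50 CPM (adjusted p = 0.0385). All of these 3 were highest in normal 1, and without it their adjusted p-values were 0.0921, 0.101 and 0.135. Atp4a, the acid pump, stood at 5142, 3346 and 2546 CPM in the normals and 35.7, 579 and 74.9 CPM in the tumors and was not called (adjusted p = 0.0985, and 0.0403 with the replicate block).

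Chief cell genes had 0 of 10 called by edgeR and a median of -2.77. At an unadjusted p under 0.05, 1 was higher and 4 lower, the same counts that DESeq2 called, and the replicate block called 1 lower. Pgc, the pepsinogen C gene, stood at 125470, 57013 and 90203 CPM in the normals and 186, 4450 and 2045 CPM in the tumors, and its adjusted p was 0.0942 in edgeR and 0.00299 in DESeq2. Pit cell genes had 0 of 10 called by edgeR, by DESeq2 or at an unadjusted p under 0.05. Their sums of 70507 and 48112 CPM in antrum 2 and 3 lay within the 37133 to 126900 CPM of the normals, and antrum 1 had 1004 CPM. Gkn1, the gastrokine of pit cells, stood at 11759, 27427 and 36044 CPM in the normals and 302, 16262 and 11843 CPM in the tumors (adjusted p = 0.519). Neck mucous genes had 0 of 7 called by edgeR and 3 lower by DESeq2, as at an unadjusted p under 0.05. All 7 were highest in normal 1, and their median of -2.59 was -0.52 without it and 0.04 without normal 1 and antrum 1. Muc6, the gland mucin, stood at 51297, 2238 and 2718 CPM against 201, 1625 and 993 CPM, so normal 1 held 91.2% of its normal sum (adjusted p = 0.0689). Of 17 pan-epithelial genes 0 were called by edgeR or DESeq2, and 0 had an unadjusted p under 0.05. Grhl2, an epithelial transcription factor, stood at 50.5, 58.7 and 63.7 CPM in the normals and 1.66, 44.1 and 26.3 CPM in the tumors, below every normal in each tumor but far lower in antrum 1. The same library was low in B2m, the shared chain of MHC class I, at 60.3 CPM against 695 and 202 CPM in antrum 2 and 3 and 580 to 848 CPM in the normals, and 0 of 14 antigen presentation genes were called by edgeR or DESeq2 or had an unadjusted p under 0.05.

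Squamous epithelium genes held the steepest falls, and these rested on normal 2. Of 21 tested, 6 were called lower, against 5.08% of all genes, and 0 higher. All 21 were highest in normal 2, 2 separated the groups, and the median was -6.96. With genes at 0 in every tumor set to their bound the median was -6.77, and without normal 2 it was 0.53 with 0 called in either direction. Krt1, a keratin of cornifying cells, stood at 0.367, 3886 and 1.07 CPM in the normals and 0, 0.757 and 0.275 CPM in the tumors (log2 fold change -11.84 ± 3.20, adjusted p = 0.033 in edgeR, 0.642 without normal 2 and 0.0517 with the replicate block). Krt10, its partner, stood at 1.62, 3217 and 2.22 against 1.41, 1.98 and 1.93 CPM (adjusted p = 0.0353, 0.948 without normal 2 and 0.0874 with the replicate block). Lor, loricrin of the cornified envelope, stood at 1.1, 1082 and 0.229 against 0.0615, 0.117 and 0.11 CPM. Flg, filaggrin, stood at 0, 517 and 0.0765 CPM against 0 in all tumors, at least 2670-fold lower from a floor of 3 counts over the group, and its adjusted p of 0.0417 was 0.432 without normal 2 and 0.0691 with the replicate block. With that block 1 gene of the list was called, and limma on TPM called 0, while DESeq2 called 15 lower and 16 were lower at an unadjusted p under 0.05. Spink5, a protease inhibitor of squamous cells, stood at 0, 598 and 0 CPM against 0, 0.0583 and 0 CPM, and its fitted change turned to 1.83 without normal 2. Summed over the list, antrum 2 and 3 held 147 and 172 CPM, above the 29.2 and 55.9 CPM of normal 1 and 3, and antrum 1 held 18 CPM.

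Each of the 824 falls was assigned to the normal library in which it was highest. Normal 1 was the highest for 483 (58.6%), normal 2 for 194 (23.5%) and normal 3 for 147 (17.8%). Over all genes tested the same shares were 45.6%, 31.9% and 22.5%. The highest normal was still a modest part of the sum in most falls: its median share was 43% where normal 1 was highest, 43.9% for normal 2 and 41.3% for normal 3. A library that holds at least 75% of the summed normal CPM is said here to dominate a fall. By that measure normal 2 dominated 53 falls, normal 1 dominated 3 and normal 3 dominated 0, and 768 falls were dominated by none. In all, 6.8% of the falls were dominated by a library, against 4.8% of all genes tested.

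The 53 falls dominated by normal 2 had a median log2 fold change of -7.78, which became -0.82 without that library, and 52 lost their call and 13 turned above 0. Dominated falls were chosen by the share of 1 library. Smaller changes and lost calls without that library were therefore nearly fixed in advance. Beside the keratins and cornified envelope genes the 53 falls held Klk8 and Dsc3, a protease and a desmosomal cadherin of squamous cells, and Aox4, an aldehyde oxidase, at 0.294, 75.4 and 0.306 CPM against 0.0615, 0 and 0.165 CPM. With the replicate block Aox4, Klk8 and Dsc3 had adjusted p-values of 0.0706, 0.0585 and 0.0639. The exception that kept its call was Pla2g4f, a cytosolic phospholipase, at 3.16, 54 and 1.38 CPM against 0, 0.0583 and 0.0551 CPM, of which normal 2 held 92.3%. The 3 falls dominated by normal 1 were Cgref1, Has3 and D6Ertd527e, named here after their values were seen except Cgref1, and all 3 lost their call without it. Cgref1, a secreted calcium-binding protein, stood at 406, 71.1 and 33.9 CPM against 7.93, 24.1 and 18.2 CPM (adjusted p = 0.0304, 0.118 without normal 1 and 0.0517 with the replicate block). Has3, a hyaluronan synthase, stood at 18, 2.01 and 1.22 CPM against 0.492, 0.466 and 0.551 CPM.

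A fall can depend on a library that does not dominate it. Without normal 1, 617 of the 824 falls lost their call, without normal 2 473 and without normal 3 650, so 207, 351 and 174 were kept. Normal 3 was thus the normal whose loss cost the most falls although it was the highest normal for the fewest. Its loss cost the most rises too: 206 of the 1556 were kept without it, against 493 without normal 1 and 493 without normal 2. All 147 falls highest in normal 3 stayed below 0 without it. Likewise 482 of the 483 highest in normal 1 and 176 of the 194 highest in normal 2 stayed below 0 without that library. In 774 of the 824 falls all tumors already lay below all normals. The kept direction was therefore nearly fixed in advance and is no separate check. Falls lost without 1 normal and kept without each of the others numbered 31 for normal 1, 28 for normal 2 and 44 for normal 3. The muscle and nerve genes Pln, Tacr2, Hand2 and Sox10 belonged to normal 3 in this sense, Cgref1 to normal 1, and Krt1, Krt10, Lor, Aox4, Klk8 and Dapl1 to normal 2. By list, the called falls highest in normal 1 held all 3 parietal and all 3 mitochondrial calls, those highest in normal 2 held all 6 squamous calls and 4 of 10 muscle calls, and those highest in normal 3 held 5 of 10 muscle calls and both enteric calls. A core of 93 falls (0.573% of all genes tested) was called with all samples and without each normal, and 71 of them were also called without each antrum tumor. In the core the highest normal held a median of 41.3% of the sum, between 34.9% and 92.3%.

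**Figure D4:**
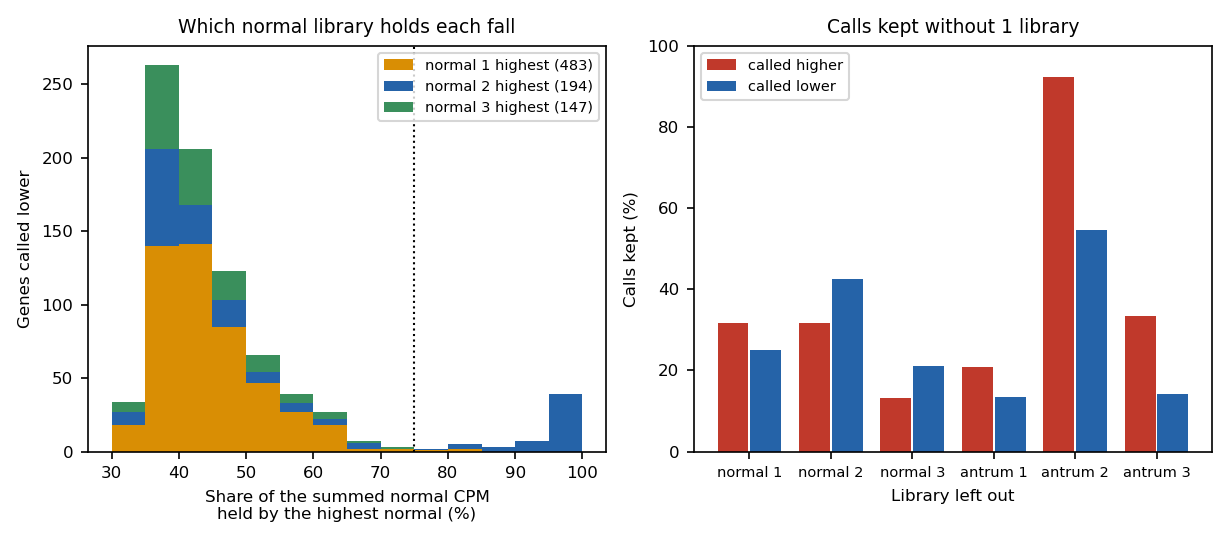
Left, the 824 genes called lower by the share of the summed normal CPM that their highest normal holds, in percent, colored by that library, with the 75% line dotted. Right, percent of the 1556 rises (red) and 824 falls (blue) still called when the library on the x axis is left out. Most falls lie under 60%, and those above 90% are highest in normal 2.

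Metabolic lists had few calls in number. Over all genes 9.59% were called higher and 5.08% lower. Of 13 mitochondrially encoded genes 3 were called lower and 0 higher (8 with the replicate block and 0 in TPM), and 12 were highest in normal 1. mt-Nd4, a subunit of complex I, fell from 10380, 6024 and 5508 to 2544, 3871 and 2672 CPM (log2 fold change -1.27 ± 0.34, adjusted p = 0.0316, and 0.0959 without normal 1). Of 17 amino acid and stress genes 3 were called higher, the serine enzyme Psat1 (37.3, 43 and 18 against 152, 85.3 and 138 CPM), the one-carbon enzyme Shmt2 (71.8, 30.6 and 29.5 against 279, 105 and 167 CPM) and the arginine transporter Slc7a1 (97.6, 106 and 98.3 against 221, 151 and 205 CPM). Of 16 glycolysis and hypoxia genes 1 was called, the lactate exporter Slc16a3, at 16.3, 7.94 and 9.17 against 141, 30.7 and 95.5 CPM (adjusted p = 0.0165, and 0.0583 without antrum 1). Without antrum 1 the adjusted p-values of Psat1, Shmt2 and Slc7a1 were 0.0646, 0.106 and 0.0916. Of 20 p53 targets 0 were called higher and 2 lower, against 9.59% and 5.08% of all genes, while limma on TPM called 2 higher (Bax and Aen) and 0 lower. These were Btg2, an antiproliferative gene, at 246, 222 and 251 against 139, 135 and 148 CPM (log2 fold change -0.77 ± 0.19, adjusted p = 0.0263), and Rrm2b, a ribonucleotide reductase subunit, at 29.1, 21.1 and 26.5 against 16.8, 15.7 and 18.6 CPM (-0.59 ± 0.18, adjusted p = 0.0471). On the log2(TPM + 1) scale neither was called (adjusted p = 0.383 and 0.933), Rrm2b was at 0.03, and the median of the list was 0.24 in place of -0.37. Cdkn1a, the p21 gene, stood at 173, 236 and 319 against 26.8, 206 and 155 CPM, and Mdm2 at 61.3, 58.7 and 52.8 against 52.8, 59.9 and 55.8 CPM, and neither was called.

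Several lists of other cell types had no call by edgeR. Of 13 pancreatic acinar genes 0 were called, with 1 higher and 1 lower by DESeq2 and at an unadjusted p under 0.05. Of 15 intestinal epithelium genes 0 were called, with 2 higher and 1 lower at an unadjusted p under 0.05 and 3 and 2 by DESeq2. Of 12 EGF family genes 0 were called, with 1 lower by either measure. Of 13 endothelial genes 0 were called, 4 were lower at an unadjusted p under 0.05, and DESeq2 and the replicate block each called 1 lower. Of 11 mast cell genes, 7 genes of interstitial pacemaker cells and 5 erythroid genes, 0 were called by edgeR or DESeq2 and 0 had an unadjusted p under 0.05. Of 12 immediate early genes 0 were called, with 3 lower at an unadjusted p under 0.05 and 0 by DESeq2, and all 12 were highest in normal 2. Of 17 interferon response genes 0 were called, 1 was higher at an unadjusted p under 0.05 and 0 by DESeq2. Tcf7, a Wnt effector, was the 1 gene called higher among 16 Wnt and stem genes, at 4.04, 2.88 and 4.97 against 16.8, 8.68 and 20.9 CPM (adjusted p = 0.0476, not called with the replicate block). That share is below the 9.59% of all genes called higher. Fabp4, the fatty acid carrier of adipocytes, was called lower beside Plin4 among 5 adipocyte genes, against 5.08% of all genes called lower. It fell from 84.6, 78.4 and 57.2 to 20.2, 30.5 and 20.1 CPM (adjusted p = 0.0376).

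**Figure D5:**
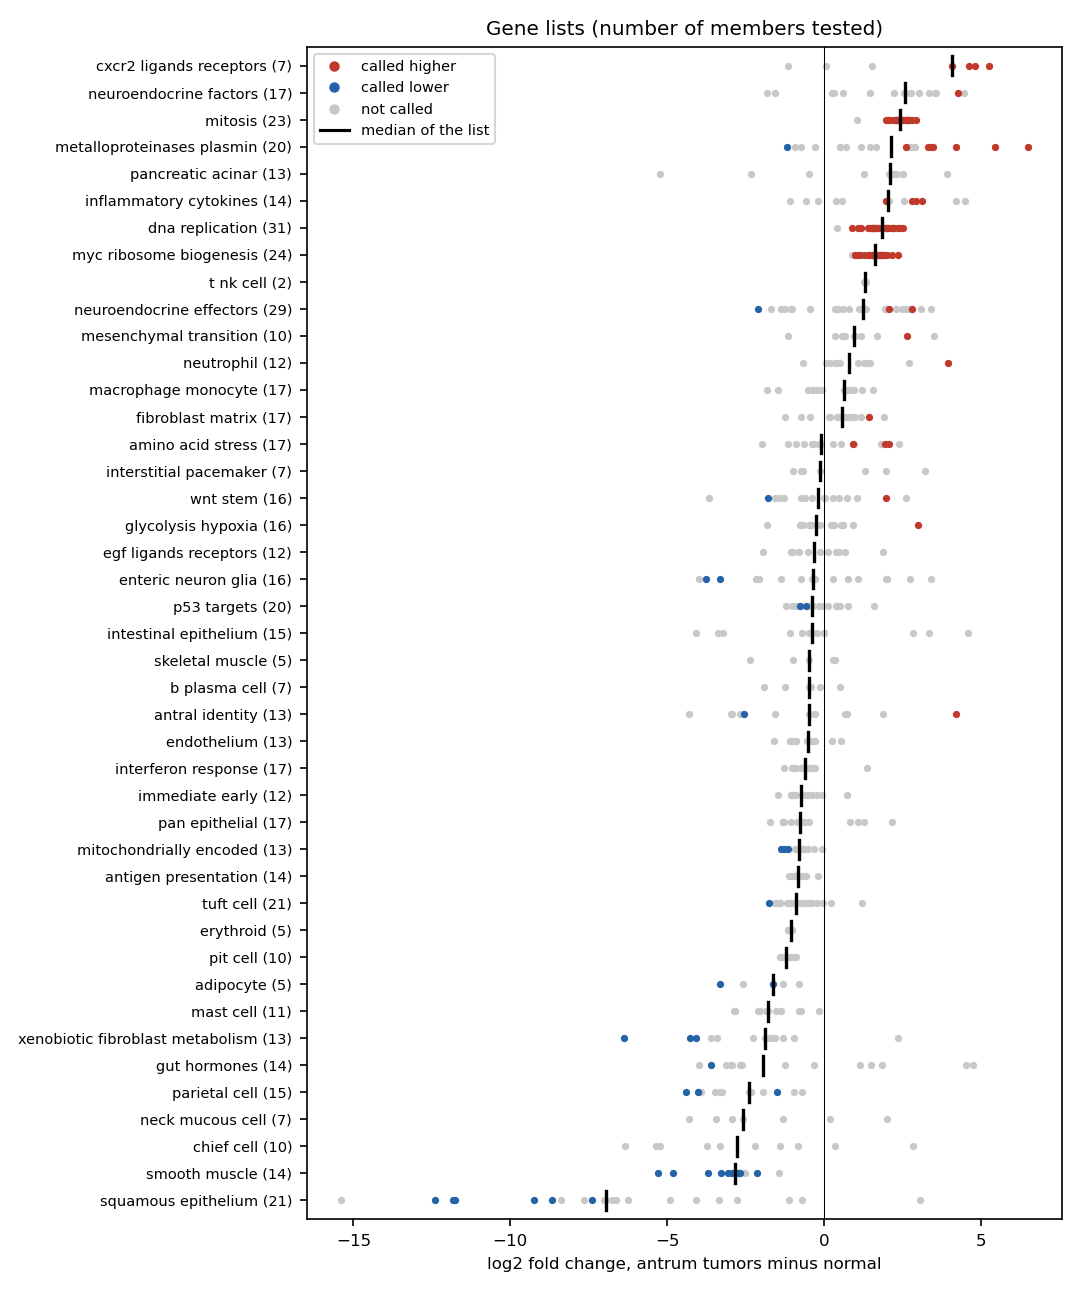
log2 fold change of every tested member of the 43 gene lists, antrum tumors minus normal, with members called higher in red, called lower in blue and not called in grey, and the median of each list as a bar. The replication, mitosis and ribosome lists are narrow and nearly all red, smooth muscle is mostly blue, and the squamous list lies farthest left.

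Against the tumors of the other sites the antrum tumors had 0 genes called by edgeR (0% of 16224), with a smallest adjusted p of 0.171. Unadjusted, 275 genes were higher and 94 lower at a p under 0.05, and DESeq2 called 33 higher and 36 lower. Of the 12 largest rises over normal, Dlk1, Zdbf2 and Shox2 had levels in the antrum tumors above the range of the other 9 tumors. Calcr, Mmp10, Hs6st2, Inhba, Pax6, Onecut2, Cdkn2a, Mmp13 and Bcat1 overlapped that range. Onecut2 ranged from 44.3 to 84.4 CPM in the antrum tumors and from 40 to 137 CPM in the others, and Mmp10 from 8.11 to 81.5 and from 49.1 to 126 CPM. The share of all genes separated in this way is not given here. Dlk1 ranged from 67.5 to 113 CPM in the antrum tumors and from 3.06 to 39.6 CPM in the others (adjusted p = 0.949), and Zdbf2 from 37.6 to 73.8 and from 0.255 to 28 CPM (adjusted p = 0.22). Shox2 ranged from 7.63 to 26.8 and from 0 to 3.69 CPM (adjusted p = 0.254). Mcm4 stood at 92.5 to 102 CPM in the antrum tumors, inside the 60.8 to 119 CPM of the others. Acta2 stood at 88.9 to 156 CPM in the antrum tumors and 57.4 to 186 CPM in the others.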

How the data were processed

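RNA sequencing of 15 mouse stomach samples was analysed, 3 for each of 5 groups. The authors deposited a table of counts per gene, and a table of TPM values that its name calls another unit but whose columns share 1 total. The submitters' processing notes name bcl2fastq 2.19, kallisto 0.44.0, sleuth, DESeq2 and GRCm38.p6 without their roles, and no source used here names the annotation counted. Of 36144 genes, 16224 passed edgeR's filter on low counts (minimum count 10). All 15 samples were fitted together with TMM scaling and edgeR's robust quasi-likelihood test (edgeR 4.0.16, R 4.3.3), with Benjamini-Hochberg adjustment over all genes tested, and calls were made at an adjusted p under 0.05. Values are TMM-scaled CPM. Standard errors are the fold change divided by the square root of F. Alternatives used DESeq2 1.42.0 and limma 3.58.1 on log2(TPM + 1).

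Named genes were those of the engineered alleles and main markers, the 12 largest rises and falls without overlap and with at least 10 CPM in the higher group's mean, the 12 largest falls held without each normal, up to 4 falls dominated by each normal, and the 3 members of each list with the smallest p. The members and lists were chosen with earlier results of these data known. Coordinates are from GENCODE M21 (GRCm38). Same-numbered normal and antrum samples deviated together (r = 0.46, 0.26 and 0.18 for replicates 1, 2 and 3). Of the unlike-numbered pairs, normal 2 with antrum 3 gave 0.14 and normal 3 with antrum 2 gave 0.12, and the rest -0.41 to -0.18. The pairing, read from the data and not from the labels, was thus marked for replicate 1 only. Fits with the replicate number as a block are given for some of the calls they change. The block also moved list counts not given above, such as replication to 29 higher, antral to 2 lower and intestinal epithelium to 1 lower. It moved amino acid genes to 4 higher and foreign compound genes to 4 lower.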

Additional observations from a re-analysis of the deposited data

How the results depend on the processing

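The counts of 1556 rises and 824 falls depended on the processing, and the cause was not tested. Where libraries were left out, the smaller number of samples and the content of those libraries cannot be told apart. DESeq2's test called 2636 and 1808, the fit of the compared groups only 701 and 201, a test against a 1.5-fold change 329 and 119, and limma 3745 and 302 on log2(TPM + 1), 4009 and 278 on log2(TPM + 0.1) and 3017 and 291 without a filter. Without a filter on low counts edgeR called 1186 and 449. With DESeq2's size factors it called 1560 and 856. Leaving out 1 library gave 207 to 1683 rises and 122 to 568 falls, and leaving out normal 1 and antrum 1 together, an alternative chosen after seeing the data, gave 2 and 0. Against the other sites the count of 0 rises became 33 and that of 0 falls 36 with DESeq2, 1 rise was called with the replicate block, and leaving out 1 library gave 0 to 1 rises and 0 to 0 falls. At a share of 60% normal 1, 2 and 3 dominated 25, 61 and 7 falls, and at 90% they dominated 0, 46 and 0.

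With the replicate block 1591 genes were called higher and 857 lower, and 1419 of the 1556 rises and 683 of the 824 falls kept their call. Of the 169 named genes, 90 were called in the main fit, and 88 of these lost the call under at least 1 alternative. Counting genes not called as well, 44 of the 169 neither lost nor gained a call under any alternative. Spink5 reversed to 1.83 without normal 2, within a range of -14.64 to 1.83 when 1 library was left out, and Rrm2b reversed to 0.031, 0.037 and 0.031 in the TPM fits.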
